A study of Homo sapiens with 54 samples.

Results

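The 6 UGT2B genes UGT2B7, UGT2B10, UGT2B11, UGT2B15, UGT2B17 and UGT2B28 were chosen by name from the 60642 human genes of an expression table of 54 LNCaP xenograft tumours. LNCaP is an androgen-responsive human prostate cancer cell line, and all tumours came from 1 line grown under the skin of male NOD-SCID mice, which lack working lymphocytes but keep their own stroma, vessels and steroid-producing organs. The PRE-CX group held 9 mock-operated intact mice whose tumours were taken at the size limit of 1000 cubic mm. The other 45 mice were surgically castrated at a tumour size of about 200 cubic mm. POST-CX tumours (8 mice) were taken 1 week after castration at the low point of serum PSA, and CRPC tumours (10 mice) after PSA or tumour size had recovered without a drug. The remaining mice received enzalutamide, an antiandrogen, at 10 mg/kg by mouth on 5 days a week. ENZS tumours (12 mice) were taken while PSA was at its second low point on the drug, and ENZR tumours (15 mice) after PSA or size had recovered despite it. Each tumour is 1 mouse and 1 library, tumours are named by group and mouse number, and the groups differ in tumour size and in time after engraftment as well as in treatment.

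UGT2B enzymes sit in the endoplasmic reticulum and transfer glucuronic acid from UDP-glucuronic acid to small lipophilic molecules, which makes them water-soluble and ready for export. In the prostate, UGT2B15 and UGT2B17 conjugate dihydrotestosterone and its metabolite androstanediol and so end their hormonal action, and UGT2B28 also accepts androgens. UGT2B7 acts on a wide range of steroids and drugs, UGT2B10 is best known for N-glucuronidation of amines, and UGT2B11 conjugates fatty acid derivatives. In LNCaP cells androgens are known to repress UGT2B15 and UGT2B17, and the comparison of intact with castrated and enzalutamide-treated hosts addresses the level of these genes at successive steps of androgen withdrawal.

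All 6 genes lie within 757.9 kb of chromosome 4 in the RefSeq annotation of GRCh38.p14 (the submitters' processing notes name GRCh38 as the human build). UGT2B17 (68537173 to 68576322) comes first, followed by UGT2B15 (68646597 to 68670652), UGT2B10 (68815994 to 68832023), UGT2B7 (69051375 to 69112987), UGT2B11 (69199951 to 69224984) and UGT2B28 (69280475 to 69295050). UGT2A3 lies between UGT2B10 and UGT2B7 at 68928463 to 68951804. UGT2B4, a liver bile acid and steroid UGT that was not chosen, lies beyond UGT2B28 at 69480165 to 69526014. The coding sequences fall into close pairs. In the longest open reading frame of the first-listed GENCODE 44 transcript (lifted to GRCh37), UGT2B15 and UGT2B17 were identical at 96.6% of aligned positions and UGT2B11 and UGT2B28 at 97.0%. UGT2B10 was 95.0% identical to UGT2B11 and 94.2% to UGT2B28, whereas UGT2B17 was only 85.1% identical to UGT2B11 and 84.3% to UGT2B28. Stretches of 125 bases, the read length of these libraries, that recurred letter for letter in another UGT2B transcript made up 8.41% of UGT2B15, 7.17% of UGT2B17, 1.26% of UGT2B11 and 0.949% of UGT2B10, and 0% of UGT2B28 and UGT2B7. A read from such a stretch cannot be assigned to 1 gene by its own letters. The reads were paired and a mate may differ, so these percentages are not shares of unassignable pairs. The split between UGT2B15 and UGT2B17 and, to a lesser degree, between UGT2B10 and UGT2B11 is still less certain than the sum.

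RefSeq promoter windows of 300 bases, 250 before and 50 after a start site, were at hand for 4 of the 6 genes (UGT2B7, UGT2B10, UGT2B11 and UGT2B15). Windows of UGT2B15 (chr4:68670603-68670902, minus strand), UGT2B10 (chr4:68815744-68816043, plus strand) and UGT2B11 (chr4:69214699-69214998, minus strand) are shown in gene orientation. They stand for a member called higher than PRE-CX in ENZS and ENZR only, a member without a called change and a member called lower in ENZS only. Capitals mark the only matches, on either strand, to the FOXA core TGTTTAC and the HNF1 motif GTTAAT.
UGT2B15: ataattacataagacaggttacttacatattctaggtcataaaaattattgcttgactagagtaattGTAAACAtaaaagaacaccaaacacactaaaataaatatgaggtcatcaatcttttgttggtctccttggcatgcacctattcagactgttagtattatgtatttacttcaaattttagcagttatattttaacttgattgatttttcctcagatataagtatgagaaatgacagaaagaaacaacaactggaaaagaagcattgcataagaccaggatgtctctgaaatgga
UGT2B10: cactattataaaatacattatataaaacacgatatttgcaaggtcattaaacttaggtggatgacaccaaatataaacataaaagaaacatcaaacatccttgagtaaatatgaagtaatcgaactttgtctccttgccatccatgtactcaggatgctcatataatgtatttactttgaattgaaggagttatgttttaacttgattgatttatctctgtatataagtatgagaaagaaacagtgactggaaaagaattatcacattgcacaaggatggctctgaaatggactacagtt
UGT2B11: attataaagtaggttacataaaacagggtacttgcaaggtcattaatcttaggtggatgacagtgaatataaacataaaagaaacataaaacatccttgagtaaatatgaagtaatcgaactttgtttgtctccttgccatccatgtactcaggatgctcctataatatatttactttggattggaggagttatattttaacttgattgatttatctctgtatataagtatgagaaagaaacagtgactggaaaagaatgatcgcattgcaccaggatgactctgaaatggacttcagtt
UGT2B15 held 1 FOXA core match, on the opposite strand and beginning 183 bases before the start, and no HNF1 match. No match to either motif was in the windows of UGT2B7, UGT2B10 or UGT2B11. Among all 35116 RefSeq windows of this length, 3.42% held the FOXA core and 6.88% the HNF1 motif. The UGT2B10 and UGT2B11 windows were identical at 90.1% of aligned columns, UGT2B11 and UGT2B15 at 70.2%. These matches describe letters and were not tested for binding.

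Levels are TPM, the share of each gene among the transcripts of a library after scaling for gene length, so levels of different genes can be set side by side. The reads had been aligned to human and mouse genomes together and the table keeps human genes, whose TPM summed to between 12.15% and 97.47% of 1000000 per tumour. Tumours with the lowest human total were ENZR mouse 87 (12.15%), POST-CX mouse 91 (27.89%), POST-CX mouse 48 (59.72%) and ENZR mouse 103 (66.69%). About 40 M read pairs per library were sequenced, and because the table holds TPM the count behind each value is unknown. Luminal prostate markers were high throughout (KLK3 at least 11.2 TPM, FOLH1 at least 204 TPM), while KRT5 and TP63 of basal cells and COL1A2, PECAM1, PTPRC and HBB of stroma, vessels and blood did not exceed 0.78 TPM in any tumour. Of the same lists, KRT14 reached 9.5 TPM, VWF 7.3, COL1A1 26.1, DCN 34.7 and COL3A1 58.9. Liver is a main site of UGT2B expression, and its markers ALB and CYP3A4 did not exceed 0.81 TPM, APOA1 did not exceed 1.36 TPM and TTR ran from 0.10 to 47.1 TPM. The summed level of the 8 stroma, vessel and blood markers had medians of 12.4 TPM in PRE-CX, 13.9 in POST-CX, 14.8 in CRPC, 28.4 in ENZS and 30.8 in ENZR, and its part in the differences below was not tested. In bulk tumours, fewer cells of a type and less RNA per cell cannot be told apart.

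UGT2B17 and UGT2B15 were the most abundant members in tumours of castrated hosts and rose in both enzalutamide groups, whereas UGT2B28 fell in CRPC, ENZS and ENZR and UGT2B11 in ENZS. UGT2B10 had no called change, and UGT2B7 stayed below 1 TPM in all 54 tumours. For the tests, limma was fitted to log2(TPM + 1) of the 17131 genes that reached 1 TPM in at least 8 tumours, with all 5 groups in the fit, and a gene was called at a Benjamini-Hochberg adjusted p under 0.05 over all these genes and a log2 difference of at least 1 in size. Of the 6 members, 5 met that filter. UGT2B28 reached 1 TPM in 8 PRE-CX tumours and 11 others, and UGT2B17 in 8 PRE-CX tumours and 44 others. Fold changes on this scale understate the change of low genes such as UGT2B28.

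**Figure D1:**
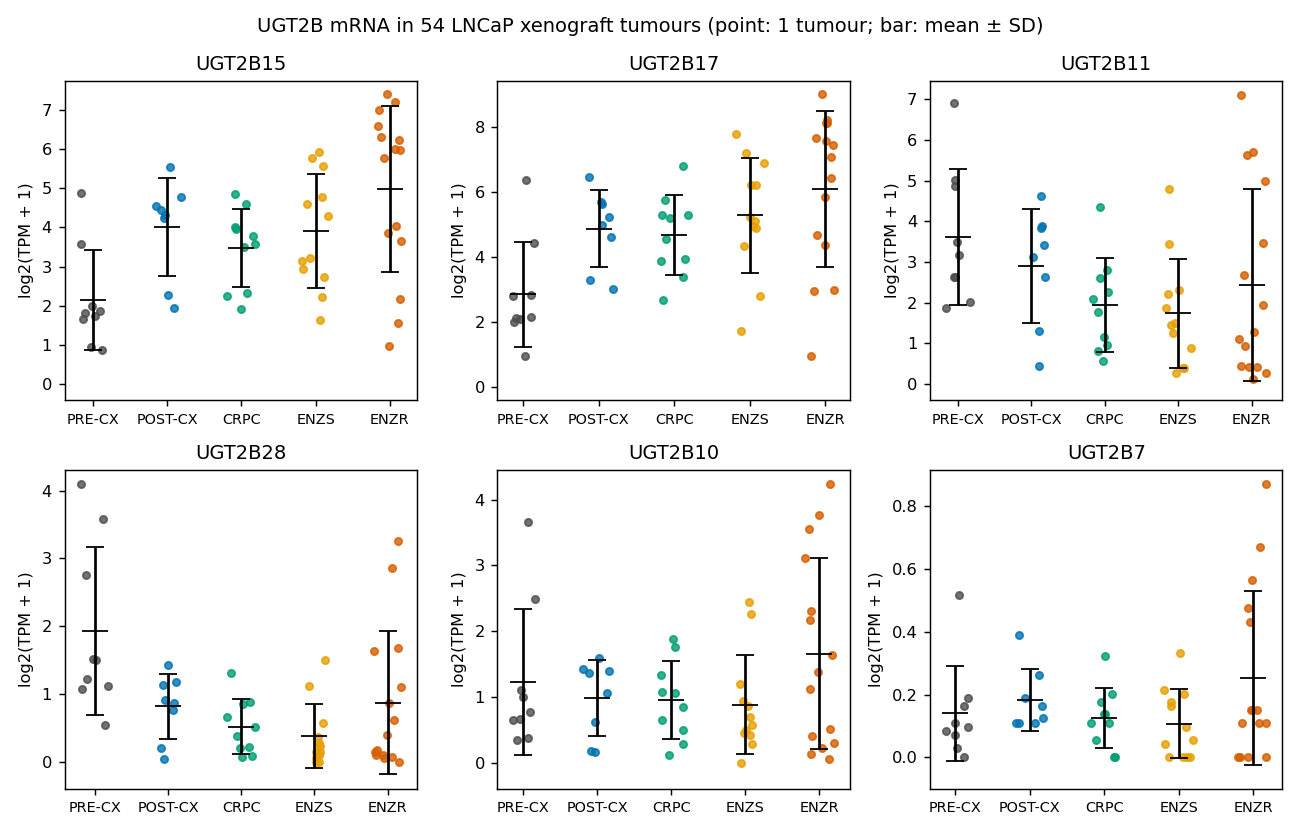
Level of each member as log2(TPM + 1) in every tumour, with the mean and SD of the 5 groups. UGT2B15 and UGT2B17 sat lowest in PRE-CX and highest, with the widest scatter, in ENZR, where UGT2B17 ran from 0.93 to 519 TPM. UGT2B28 sat highest in PRE-CX, and no tumour of UGT2B7 reached 1 TPM.

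UGT2B17, the member with the strongest known activity on dihydrotestosterone, ran in PRE-CX from 0.93 TPM (mouse 4) through a median of 3.42 to 82.4 (mouse 53). After 1 week of castration the lowest, median and highest POST-CX tumours held 7.10, 33.9 and 87.8 TPM, and CRPC tumours held 5.45, 29.3 and 111 TPM. ENZS tumours held 2.33, 35.3 and 222 TPM, and ENZR tumours 0.93, 136 and 519 TPM. All 8 POST-CX, all 10 CRPC, 11 of 12 ENZS and 14 of 15 ENZR tumours lay above the PRE-CX median, and 9 ENZR tumours lay above the highest PRE-CX tumour. The groups overlapped. PRE-CX mouse 53 was far above the other intact tumours, mouse 111 came next at 20.6 TPM, and ENZR mouse 87, the tumour with the lowest human total, held as little as the lowest intact tumour. Mean levels followed the order PRE-CX (14.3 ± 26.2 TPM, SD, n = 9), CRPC (34.3 ± 31.1, n = 10), POST-CX (36.9 ± 26.2, n = 8), ENZS (66.0 ± 66.2, n = 12) and ENZR (152 ± 148, n = 15).

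UGT2B15, its close paralogue with a similar choice of substrates, was the less abundant gene of the pair in all 5 group means. PRE-CX tumours ran from 0.83 TPM (mouse 4) through a median of 2.51 to 28.5 (mouse 53). The lowest, median and highest levels were 2.85, 19.9 and 45.7 TPM in POST-CX, 2.77, 11.8 and 27.8 in CRPC, 2.14, 13.5 and 60.0 in ENZS, and 0.96, 62.1 and 169 in ENZR. All POST-CX and CRPC tumours, 11 of 12 ENZS and 13 of 15 ENZR tumours were above the PRE-CX median, and 9 ENZR tumours were above the whole PRE-CX range. Group means were 5.99 ± 8.96 TPM in PRE-CX, 12.6 ± 8.23 in CRPC, 19.9 ± 13.5 in POST-CX, 21.9 ± 20.6 in ENZS and 60.9 ± 54.6 in ENZR (SD, n as above).

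UGT2B28, the androgen-conjugating member of the other pair, was higher in intact than in castrated hosts. PRE-CX tumours held 0.46 TPM (mouse 67), a median of 1.83 and 16.1 at most (mouse 53). POST-CX tumours held 0.03, 0.85 and 1.70 TPM, CRPC tumours 0.05, 0.36 and 1.48, ENZS tumours 0, 0.135 and 1.83, and ENZR tumours 0, 0.32 and 8.55. No tumour outside PRE-CX exceeded the PRE-CX range, and 25 of 45 lay below it. All 8 POST-CX and all 10 CRPC tumours, 11 of 12 ENZS and 11 of 15 ENZR tumours were below the PRE-CX median, and 4 ENZR tumours were above it. UGT2B28 was listed at 0 in 3 tumours, 2 of ENZS and 1 of ENZR.

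UGT2B11 was the most abundant member in intact mice. PRE-CX tumours held 2.64 TPM (mouse 67), a median of 8.02 and 120 at most (mouse 53). The lowest, median and highest levels were 0.36, 8.67 and 23.6 TPM in POST-CX, 0.47, 2.84 and 19.5 in CRPC, 0.20, 1.79 and 26.7 in ENZS, and 0.09, 1.42 and 136 in ENZR. The ENZR tumours were spread widely, with 8 of 15 below the PRE-CX range and 5 above the PRE-CX median (mice 75, 105, 103, 21 and 94 at 136, 50.6, 48.4, 30.8 and 10.1 TPM).

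UGT2B10 stayed low. Its lowest, median and highest levels were 0.27, 0.70 and 11.6 TPM in PRE-CX, 0.12, 1.33 and 2.02 in POST-CX, 0.08, 0.94 and 2.68 in CRPC, 0, 0.55 and 4.44 in ENZS, and 0.04, 1.59 and 18.0 in ENZR. Only 25 of 54 tumours reached 1 TPM, and the groups overlapped throughout. UGT2B7 was listed at 0 in 11 tumours and reached at most 0.83 TPM, in ENZR mouse 21, so it was left out of the tests.

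Against PRE-CX, POST-CX gave no called member, while 2.62% of all tested genes were called. UGT2B15 differed by 1.86 (log2, SE 0.70, limma adjusted p = 0.126), UGT2B17 by 2.01 (SE 0.80, adjusted p = 0.157), UGT2B28 by -1.12 (SE 0.37, adjusted p = 0.0764), UGT2B11 by -0.72 (SE 0.77) and UGT2B10 by -0.25 (SE 0.46). These 3 leading members had an unadjusted p under 0.05, as did 17.3% of all genes. The call depended on the scale: with each tumour rescaled to a human total of 1000000 TPM, UGT2B15 (2.13, adjusted p = 0.0152), UGT2B17 (2.30, adjusted p = 0.0229) and UGT2B28 (-1.13, adjusted p = 0.0300) were all called. Over the 7 alternatives the adjusted p of UGT2B15 ran from 0.0152 to 0.242, that of UGT2B17 from 0.0196 to 0.293 and that of UGT2B28 from 0.0300 to 0.160. Without the tumours of lowest human total, POST-CX mouse 91 and ENZR mouse 87, UGT2B15 (2.16, adjusted p = 0.0267) and UGT2B17 (2.28, adjusted p = 0.0403) were called.

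CRPC tumours had 1 called member, UGT2B28, which fell by 1.41 (log2, SE 0.35, adjusted p = 0.00633 in limma), against 3.17% of all genes called and 1.0% called lower. UGT2B17 differed by 1.82 (SE 0.76, adjusted p = 0.145), UGT2B11 by -1.68 (SE 0.73, adjusted p = 0.165), UGT2B15 by 1.33 (SE 0.66, adjusted p = 0.250) and UGT2B10 by -0.28 (SE 0.43). The fall of UGT2B28 was called in every fit that left out a single tumour, at -1.59 to -1.14.

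ENZS tumours had 4 called members of 5 tested, with 12.7% of all genes called, 9.46% higher and 3.27% lower. UGT2B17 rose by 2.43 (SE 0.73, limma adjusted p = 0.00621) and UGT2B15 by 1.75 (SE 0.63, adjusted p = 0.0233). UGT2B28 fell by 1.56 (log2, SE 0.34, adjusted p = 2.02e-04) and UGT2B11 fell by 1.89 (SE 0.70, adjusted p = 0.0268). The median gene was 0.26 higher in ENZS, so relative to it the rises were smaller and the falls larger by that amount. The UGT2B11 call was lost without PRE-CX mouse 53 (-1.48, adjusted p = 0.0857), mouse 111 (-1.71, adjusted p = 0.0583) or mouse 112 (-1.73, adjusted p = 0.0541). With no filter on low genes UGT2B11 and UGT2B15 missed the threshold (adjusted p = 0.0619 and 0.0542, in ranges of 0.00800 to 0.0619 and 0.00853 to 0.0542 over the alternatives).

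ENZR tumours had 3 called members, with 8.55% of all genes called, 4.65% higher and 3.90% lower. UGT2B17 rose by 3.24 (SE 0.70, limma adjusted p = 2.66e-04) and UGT2B15 by 2.83 (SE 0.60, adjusted p = 2.48e-04), the largest differences of the 5 tested members in any of the 7 comparisons. Both calls held in each of the 54 fits that left out a tumour (3.002 to 3.681 for UGT2B17 and 2.66 to 3.17 for UGT2B15) and in the 7 other alternatives. UGT2B28 fell by 1.06 (log2, SE 0.32, adjusted p = 0.00965), just past the size required. It came to -0.999 without ENZR mouse 87, -0.96 without PRE-CX mouse 111, -0.86 without PRE-CX mouse 112 and -0.79 without PRE-CX mouse 53, below that size, with adjusted p up to 0.0489. UGT2B11 differed by -1.19 (SE 0.67, adjusted p = 0.180) and UGT2B10 by 0.43 (SE 0.40, adjusted p = 0.445).

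**Figure D2:**
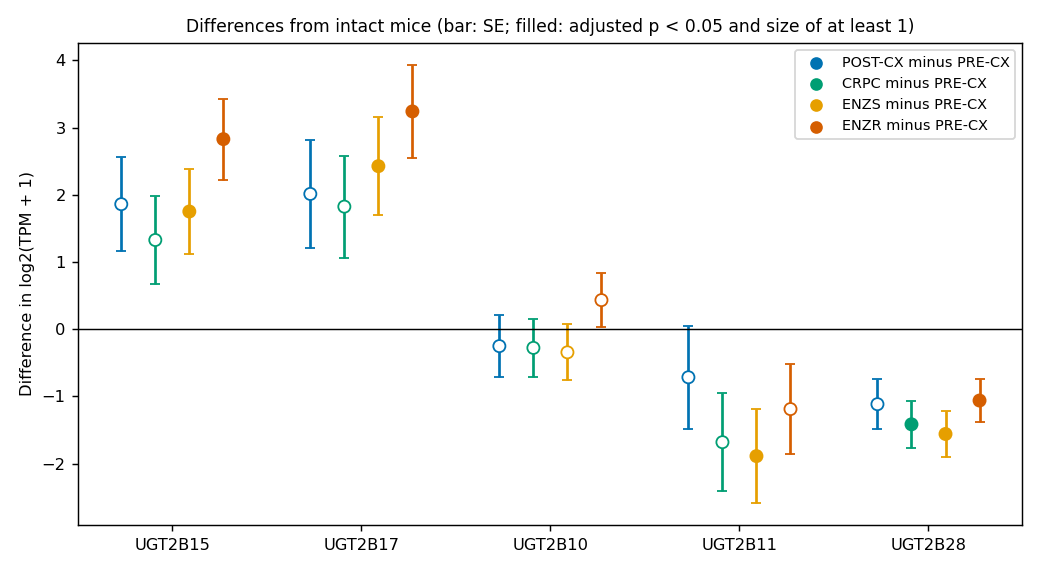
Difference of each tested member from PRE-CX on the log2(TPM + 1) scale with its SE for POST-CX, CRPC, ENZS and ENZR. Filled points passed the adjusted p and size limits. UGT2B15 and UGT2B17 were above 0 and UGT2B11 and UGT2B28 below 0 in all 4 comparisons, which share the PRE-CX tumours, and UGT2B10 stayed within 0.43 of 0.

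The steps after castration gave no called member. From POST-CX to CRPC the members differed by -0.97 (UGT2B11) to -0.03 (UGT2B10), none at an unadjusted p under 0.05, and limma called 0% of all genes while 6.74% had an unadjusted p under 0.05. From CRPC to ENZS they differed by -0.21 (UGT2B11) to 0.60 (UGT2B17, SE 0.71), with 2.42% of genes called and no member at an unadjusted p under 0.05. From ENZS to ENZR all 5 were positive, from 0.50 (UGT2B28) to 1.08 (UGT2B15, SE 0.56, adjusted p = 0.449), and UGT2B10 alone had an unadjusted p under 0.05 (0.78, SE 0.37, adjusted p = 0.428), with 0.00584% of genes called. The contrast of the relapse on enzalutamide with the relapse after castration alone, which share no tumours, called no member and 0.187% of genes. In that contrast UGT2B11 differed by 1.67 (SE 0.97, adjusted p = 0.310) and UGT2B15 by 1.61 (SE 0.88, adjusted p = 0.285). In the order of mean UGT2B17 levels, none of the neighbouring groups that were compared (PRE-CX and CRPC, CRPC and POST-CX, ENZS and ENZR) differed past the threshold, and POST-CX was not tested against ENZS.

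Within a tumour, the balance between the pairs separated intact from castrated hosts more clearly than the level of any member, none of which lay outside the PRE-CX range in more than 25 of the 45 tumours. The log2(TPM + 1) difference UGT2B17 minus UGT2B11, chosen after the levels were seen and so given without a test, ran from -2.75 (mouse 112) through a median of -0.58 to 0.28 (mouse 67) in PRE-CX. It was 0.36, 2.16 and 2.62 in POST-CX (lowest, median, highest), 1.76, 2.57 and 4.25 in CRPC, 0.94, 3.54 and 5.82 in ENZS and 0.80, 3.58 and 6.27 in ENZR. All 45 tumours of castrated mice lay above all 9 PRE-CX tumours, including PRE-CX mouse 53 and the tumours with low human totals. UGT2B15 minus UGT2B28 lay above the PRE-CX range in 44 of 45, the exception being ENZR mouse 87. The other difference computed, UGT2B17 minus UGT2B28, did so in 43 of 45. Each was chosen to set members against each other that had moved in opposite directions, which favours such a difference over a single level.

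**Figure D3:**
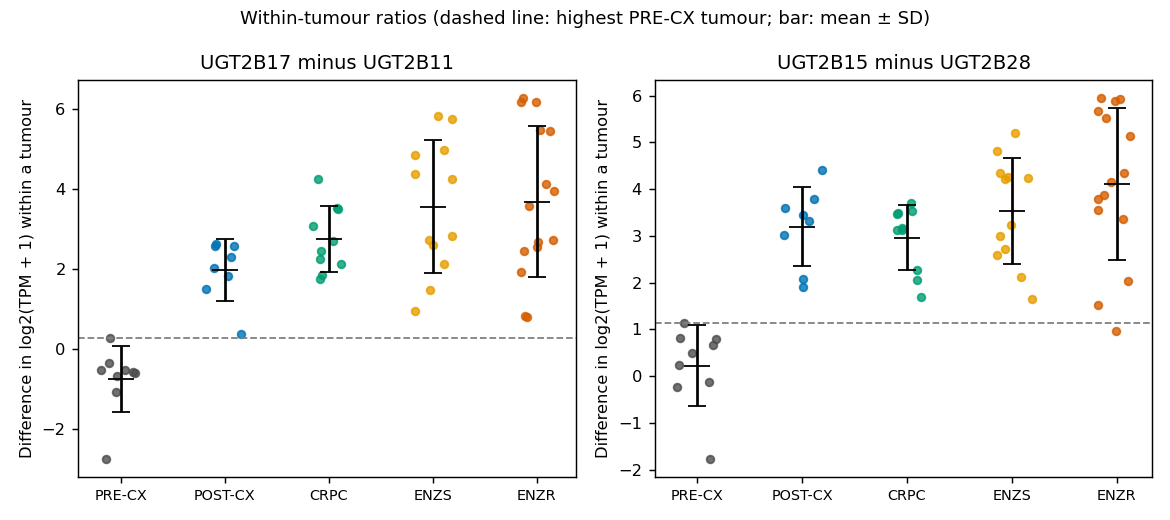
Difference in log2(TPM + 1) between UGT2B17 and UGT2B11 (left) and between UGT2B15 and UGT2B28 (right) in each tumour, with group mean and SD and a dashed line at the highest PRE-CX tumour. All 45 tumours of castrated mice lie above the line on the left and 44 of 45 on the right.

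As shares of the summed TPM of the 6 genes, UGT2B11 made up 44.7 ± 8.50% of PRE-CX tumours (SD, n = 9), UGT2B17 25.7 ± 9.38%, UGT2B15 13.6 ± 5.37%, UGT2B28 11.2 ± 6.25%, UGT2B10 4.29 ± 1.12% and UGT2B7 0.501 ± 0.665%. UGT2B17 made up 55.5 ± 9.05% in POST-CX, 63.2 ± 8.99% in CRPC, 67.3 ± 12.8% in ENZS and 63.5 ± 11.4% in ENZR. UGT2B11 made up 12.7 ± 7.91%, 7.32 ± 4.01%, 5.74 ± 6.10% and 5.35 ± 6.85% in the same order, and UGT2B28 at most 1.19% on average. The summed level itself had medians of 18.9 TPM in PRE-CX, 70.6 in POST-CX, 45.5 in CRPC, 53.4 in ENZS and 219 in ENZR.

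**Figure D4:**
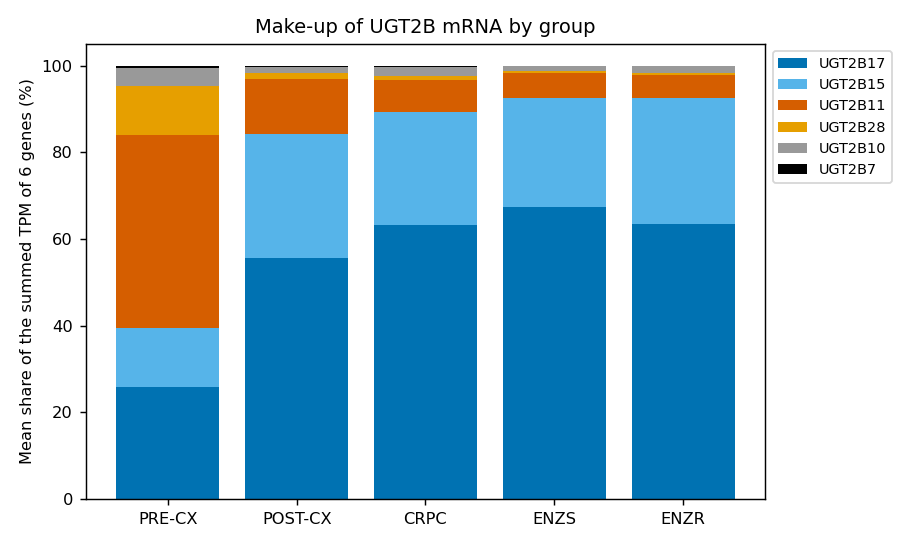
Mean share of each member in the summed TPM of the 6 genes, in percent, by group. UGT2B11 and UGT2B28 take up 44.7% and 11.2% of the bar in PRE-CX and at most 12.7% and 1.19% in the other groups, where UGT2B17 takes up 55.5% to 67.3%.

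The split within each close pair was tested as a share, which does not depend on the human total. UGT2B17 made up 64.6 ± 8.02% of UGT2B15 plus UGT2B17 in PRE-CX, 65.5 ± 5.03% in POST-CX, 70.6 ± 7.77% in CRPC, 72.3 ± 10.8% in ENZS and 68.5 ± 9.86% in ENZR. In none of the 7 comparisons did this share differ past the threshold (two-sided permutation tests, exact where a group had under 10 tumours, adjusted p over 14 tests of 0.253 to 0.792). UGT2B28 made up 19.0 ± 6.39% of UGT2B11 plus UGT2B28 in PRE-CX (n = 9), with a lowest value of 11.9%, a median of 15.5% and a highest value of 28.0%. Tumours whose pair summed to under 1 TPM were left out, which removed 1 POST-CX, 2 CRPC, 4 ENZS and 5 ENZR tumours. The share was 9.07 ± 2.40% in POST-CX (6.72% to 13.7%), lower by an exact permutation test (adjusted p = 0.00403). It was 8.47 ± 4.43% in ENZS (2.59% to 14.2%), also lower by the exact test (adjusted p = 0.00403). CRPC (10.48 ± 6.93%) and ENZR (11.2 ± 7.08%) missed the threshold in the exact test (adjusted p = 0.0821 for both). Without CRPC mouse 102, the CRPC tumour with the highest share, that comparison passed the exact test at -10.8 percentage points (adjusted p = 0.00245), and ENZR did so without mouse 100 at -9.52 points (adjusted p = 0.0140).

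Inside each group the levels of the members were correlated from tumour to tumour, also across the pairs that differed in direction between groups. The Spearman correlation of UGT2B15 with UGT2B17 was 0.93 in PRE-CX, 0.95 in POST-CX, 0.93 in CRPC, 0.92 in ENZS and 0.92 in ENZR. For UGT2B11 with UGT2B28 it was 0.90, 0.90, 0.75, 0.79 and 0.92 in the same order. UGT2B17 and UGT2B11 gave 0.72, 0.69, 0.75, 0.28 and 0.84 within the groups and 0.38 over all 54 tumours. These values are descriptions of 8 to 15 tumours a group whose values share library and human total, and for UGT2B15 with UGT2B17 some stretches of identical sequence. After rescaling to a common human total, UGT2B15 with UGT2B17 ranged from 0.85 to 0.95.

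The androgen output of the tumours was summarised as the mean of 13 androgen-induced genes on the log2(TPM + 1) scale, each relative to its mean over all tumours. FKBP5, an androgen-induced co-chaperone, had medians of 136 TPM in PRE-CX, 28.4 in POST-CX, 26.8 in CRPC, 16.3 in ENZS and 11.3 in ENZR and fell in all 4 comparisons with PRE-CX (by 2.64, 2.28, 2.91 and 3.42 on the log2 scale, limma adjusted p at most 2.49e-05). KLK3, which encodes PSA, fell in ENZR (-2.04, adjusted p = 0.00315) and had a difference of 0.09 in CRPC. The index averaged 1.40 ± 0.40 in PRE-CX, -0.58 ± 0.76 in POST-CX, 0.34 ± 0.39 in CRPC, -0.10 ± 0.63 in ENZS and -0.68 ± 1.03 in ENZR (SD). Between groups UGT2B15 and UGT2B17 had their lowest means where the index was highest. Within ENZR the sign was opposite, since tumours with a higher index had more UGT2B17 (Pearson r = 0.81, adjusted p = 0.00300, Spearman rho = 0.74, adjusted p = 0.0268, permutation tests, n = 15). UGT2B15 (r = 0.73, rho = 0.72) and UGT2B10 (r = 0.64, rho = 0.78) also passed in ENZR (permutation adjusted p of r = 0.00817 for each). UGT2B11 and UGT2B28 had r of 0.48 and 0.49 there and missed the threshold (permutation adjusted p = 0.111 and 0.0960). With a pseudocount of 0.1 both passed (r = 0.57 and 0.58, permutation adjusted p = 0.0278 and 0.0235), in ranges of 0.0278 to 0.881 and 0.0235 to 0.715 over the alternatives.

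Of these 25 relations, adjusted together, the other 22 did not pass, and in PRE-CX, POST-CX, CRPC and ENZS the r of UGT2B17 was 0.10, 0.59, -0.21 and 0.39. In POST-CX the other members had r of 0.51 (UGT2B10), 0.66 (UGT2B15), 0.76 (UGT2B11) and 0.80 (UGT2B28), with exact permutation adjusted p of at least 0.0960. Without POST-CX mouse 91 these were 0.0767, 0.22, 0.43 and 0.63, and that of UGT2B17 was 0.11. Without ENZR mouse 87, which had the lowest index (-3.81) and the lowest human total, r was 0.70 for UGT2B17 (permutation adjusted p = 0.0410), 0.62 for UGT2B15 (adjusted p = 0.0768) and 0.73 for UGT2B10 (adjusted p = 0.0545). Without the 2 tumours farthest from the median index, r was 0.64, 0.56 and 0.67 and none passed at n = 13 (permutation adjusted p of 0.202 for UGT2B17, 0.280 for UGT2B15 and 0.202 for UGT2B10). The calls did not hold without those tumours, while r stayed positive for all 3 genes and for UGT2B10 was no smaller than with all 15 tumours. Over the alternatives the adjusted p of UGT2B17 ran from 0.00150 to 0.202.

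**Figure D5:**
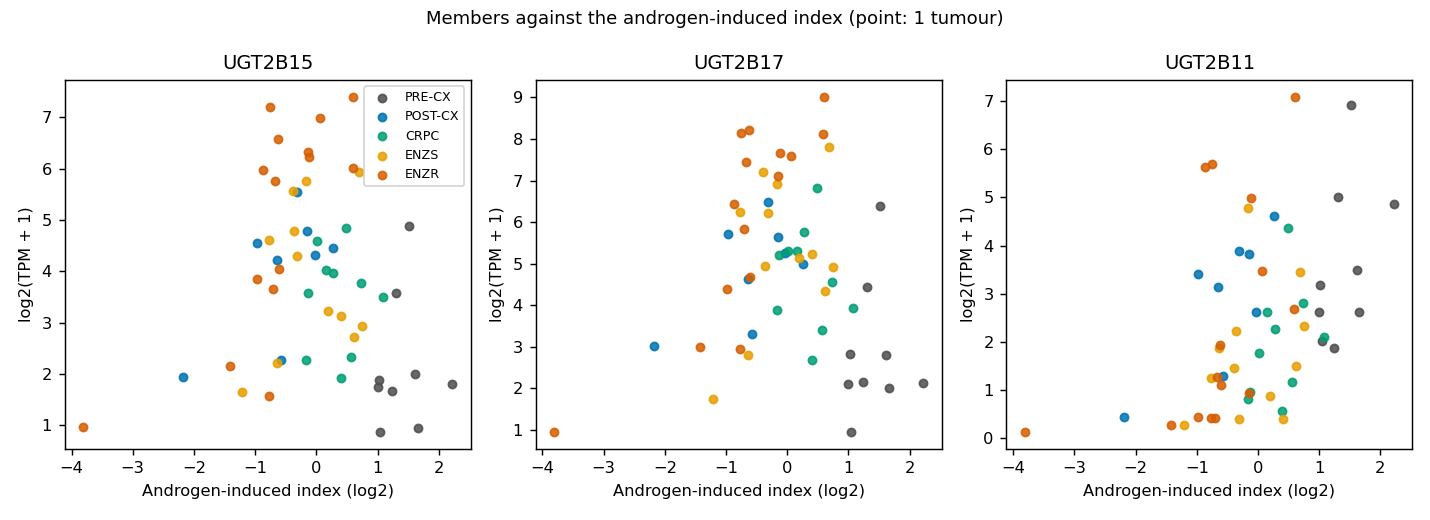
Level of UGT2B15, UGT2B17 and UGT2B11 as log2(TPM + 1) against the androgen-induced index (log2 scale, relative to the mean of all tumours), 1 point per tumour. PRE-CX tumours lie at the right with an index of at least 0.999 and mostly low UGT2B15 and UGT2B17, and ENZR tumours slope upward, with mouse 87 at the lower left.

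The 3 genes other than the 6 members whose TPM ranked most like that of each member over the 54 tumours included neighbours on chromosome 4. UGT2B4 was among the 3 closest genes for UGT2B10 (rho = 0.76), UGT2B11 (0.77), UGT2B15 (0.71) and UGT2B28 (0.75), and had no called change in any comparison. UGT2B4 reached 30.7 TPM at most, in ENZS mouse 28. TMPRSS11E, a membrane serine protease gene that lies beside UGT2B17 at 68447463 to 68497604, was closest to UGT2B15 (0.75) and second closest to UGT2B17 (0.71). HNMT (0.73), which methylates histamine, and TEX41 (0.70) completed the list for UGT2B17, and IKZF3 (0.71) that for UGT2B15. LRRC31 (0.66) was among the closest for UGT2B11, ASB9 (0.71) and DNAAF5 (0.70) for UGT2B28, and GHRLOS (0.66) and TRAK1 (0.65) for UGT2B10. The most negative values were -0.49 for UGT2B17 (PFN1P1, followed by HES2 and KCNN2), -0.48 for UGT2B15 (PFN1P1, PLPP5 and HES2), -0.53 for UGT2B11 (AC002456.2, AC007744.1 and SLC6A4), -0.53 for UGT2B28 (AC007744.1, ABCC6P2 and PRKG2) and -0.37 for UGT2B10 (AC092902.1, SLC22A3 and PFN1P1). These are descriptions over 17126 genes with group differences and human total left in.

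Of the 16 other UGT enzymes, 11 stayed under 1 TPM in every tumour, 2 were tested and none was called. Against PRE-CX, UGT1A8 passed the adjusted p limit but not the size limit in ENZS (0.82, limma adjusted p = 0.00801) and ENZR (0.80, adjusted p = 0.00945). The supply and use of UDP-glucuronic acid, the shared co-substrate, had 0 of 7 genes called in any comparison. Of all tested genes, 12.7% were called in ENZS and 8.55% in ENZR against PRE-CX. In ENZS, UGP2 (0.84, limma adjusted p = 0.00159), UXS1 (0.72, adjusted p = 0.00663) and SLC35D1 (0.51, adjusted p = 0.0253) passed the adjusted p limit but not the size limit. UGDH, the enzyme that makes UDP-glucuronic acid, had medians of 30.9 TPM in PRE-CX and 43.0 in ENZR and a difference of 0.25 (SE 0.24, limma adjusted p = 0.454). The list medians against PRE-CX were -0.15, 0.28, 0.51 and 0.25 in POST-CX, CRPC, ENZS and ENZR, beside -0.05, 0.11, 0.26 and 0.07 for all genes.

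Among 16 genes of androgen synthesis and conversion, 9 were tested and 3 rose in both enzalutamide groups. Of all tested genes, 9.46% were called higher in ENZS and 4.65% in ENZR. AKR1C1 and AKR1C2, which reduce dihydrotestosterone, rose by 1.06 and 1.20 in ENZS and by 1.03 and 1.29 in ENZR (limma adjusted p at most 0.00664). Both were low, with medians of 0.11 and 0.16 TPM in PRE-CX, 1.66 and 1.385 in ENZS and 0.96 and 2.8 in ENZR. AKR1C3, which makes testosterone from androstenedione, was higher by 1.82 in ENZS (SE 0.26, adjusted p = 9.32e-08 in limma) and by 1.53 in ENZR (SE 0.25, adjusted p = 2.81e-06), from a median of 0.20 TPM in PRE-CX to 2.83 and 2.77 TPM. It was also higher in ENZS than in CRPC (1.002, adjusted p = 0.00663). AKR1C1, AKR1C2 and AKR1C3 are close paralogues too, so the split between them is uncertain. SRD5A1, which makes dihydrotestosterone, had differences of -0.17 to 0.06 from PRE-CX.

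Of the 6 export pumps for conjugates, 3 were tested. ABCC4, itself an androgen-induced gene and a member of the index, fell in POST-CX (-1.13, SE 0.34, limma adjusted p = 0.0408) and in ENZR (-1.37, SE 0.30, adjusted p = 2.97e-04). Its difference in ENZS (-0.99, limma adjusted p = 0.0087) missed only the size limit. So did ABCC5, which was higher in ENZS (0.82, adjusted p = 0.00749) and ENZR (0.71, adjusted p = 0.0201), and ABCC1, which was lower in ENZR (-0.75, adjusted p = 0.0061). Of 7 steroid sulfation genes 4 were tested and none was called. Some passed the adjusted p limit but not the size limit against PRE-CX. In ENZS these were SULT1A1 (0.92, limma adjusted p = 0.00282), STS (0.65, adjusted p = 0.00335) and PAPSS1 (0.62, adjusted p = 0.0307). In ENZR they were SULT1A1 (0.75, limma adjusted p = 0.0139) and SULT2B1 (-0.81, adjusted p = 0.0272). Of 12 factors known to act on UGT2B promoters 7 were tested, and 1 was called higher in all 4 comparisons with PRE-CX. Of all tested genes, 2.62%, 3.17%, 12.7% and 8.55% were called in either direction in POST-CX, CRPC, ENZS and ENZR. FOXA1, which opens chromatin for other factors, was not the called factor and had differences of 0.01 to 0.42 from PRE-CX. Of the 13 androgen-induced genes 10, 5, 8 and 11 fell in the same 4 comparisons and none rose.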

How the data were processed

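Gene expression of 54 tumours was measured by strand-specific poly(A) RNA-seq with paired 125-base reads. Per the labels and the study's methods, the authors trimmed reads with Trim Galore 0.6.5 after FastQC 0.11.9, aligned them with STAR 2.7.2b to a combined human (GRCh38) and mouse (GRCm38) genome and quantified genes with RSEM 1.3.3; the deposited values are TPM of 60642 human genes, not counts, so depth behind a value is unknown. RSEM divides reads shared by close paralogues by estimate, which bears on UGT2B15/UGT2B17 and, less, UGT2B10/UGT2B11, the pairs with identical read-length stretches.

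From the TPM, log2(TPM + 1) was fitted with limma 3.58.1 (trend option, R 4.3.3) for the 17131 genes that reached 1 TPM in 8 or more tumours, with 7 comparisons and the difference between relapse steps, and calls at adjusted p under 0.05 and a log2 difference of at least 1. Permutation tests used scipy 1.17.1 (exact, or 100000 resamples), and sequences were aligned with Biopython 1.88. The limma script was tested on simulated data. Alternatives were rescaling to a human total of 1000000, centring, a pseudocount of 0.1, no filter, no trend, only the groups compared, and leaving out tumours. Named genes were the 6 members, the 3 most and least correlated genes of each, list genes called at least once, KLK3 and FKBP5. UGDH, SRD5A1, FOXA1, UGT2B4, UGT1A8, UGP2, UXS1, SLC35D1, SULT1A1, STS, PAPSS1, SULT2B1, ABCC1, ABCC5 and marker genes were named after their values were seen. The androgen-induced list held 1 gene under 2 symbols, ACP3 and ACPP. It was matched as ACPP, so the 14 listed symbols gave 13 genes. The members and lists were chosen with earlier results of these data known, and are descriptions, not independent evidence. Mouse numbers are names and pair no tumours. Some genes that this rule names are not reported here.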

Additional observations from a re-analysis of the deposited data

Results flagged for a closer look

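Dixon's test at the 95% level was applied to 26 sets of 4 to 10 tumours, the members' levels and pair shares in PRE-CX, POST-CX and CRPC and shares in other small groups, and picked out 8 values. About 1 in 20 such sets is picked out by chance if the values are normally distributed. TPM levels have a long upper tail, so high values can be picked out more often than that. The members of 1 tumour are not independent of each other. PRE-CX mouse 53 stood far above the other 8 intact tumours for UGT2B17 (82.4 TPM), UGT2B15 (28.5 TPM), UGT2B11 (119.8 TPM), UGT2B10 (11.6 TPM) and UGT2B7 (0.43 TPM). Its human total was 94.0% and its androgen-induced index 1.51, both inside the range of the other intact tumours. CRPC mouse 29 stood above the other 9 CRPC tumours for UGT2B17 (111.3 TPM) and UGT2B11 (19.5 TPM). In CRPC mouse 102 UGT2B28 made up 26.1% of UGT2B11 plus UGT2B28, above the other 7 tumours with a value.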

How the results depend on the processing

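Among calls of members, POST-CX against PRE-CX changed from 0 to 3 with rescaled values, 3 with centred values, 2 without POST-CX mouse 91 and ENZR mouse 87 and 2 with only the groups compared, and ran from 0 to 1 when single tumours were left out (1 without ENZR mouse 75, ENZR mouse 87 or PRE-CX mouse 67). CRPC against PRE-CX gave 4 in place of 1 with only the groups compared, and ENZS against PRE-CX 2 in place of 4 with no filter, where more low genes enter the correction. The counts for the other comparisons were unchanged within 1.5 times. No paired analysis was possible because the groups share no mouse.

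For the UGT2B28 share, CRPC against PRE-CX passed with rank sums (-8.55 percentage points, adjusted p = 0.0173), and CRPC against POST-CX (1.41 points) had ranks of the opposite sign. When single tumours were left out, the share differed by -10.8 to -7.43 points in CRPC and -9.52 to -6.76 in ENZR against PRE-CX, by -0.82 to 2.35 from POST-CX to CRPC and by -2.95 to 0.22 from CRPC to ENZS, and the UGT2B17 share by -0.59 to 2.38 in POST-CX against PRE-CX.

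Signs of small differences turned when a tumour was left out for UGT2B10 (-0.36 to 0.0525 in POST-CX, -0.39 to 0.0263 in CRPC, -0.14 to 0.0669 from POST-CX to CRPC, -0.21 to 0.0372 from CRPC to ENZS), UGT2B17 (-0.45 to 0.0389 from POST-CX to CRPC) and UGT2B11 (-0.49 to 0.0615 from CRPC to ENZS). Relations to the index turned negative with rescaled values for UGT2B15 (-0.0484) and UGT2B17 (-0.0380) in PRE-CX and for UGT2B10 (-0.14), UGT2B15 (-0.0204) and UGT2B17 (-0.16) in POST-CX, and without the 2 farthest tumours for UGT2B10 in POST-CX (-0.10), UGT2B10 (-0.15) and UGT2B15 (-0.26) in CRPC and UGT2B15 in ENZS (-0.0664). The cause was not tested. How many reads lie behind values near 1 TPM, as for UGT2B28 and UGT2B10, is unknown, and differences between UGT2B15 and UGT2B17 depend on how shared reads were divided.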
